A study of Oncorhynchus mykiss with 3 samples.

Results

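The family described here is made of the miRNAs of rainbow trout (Oncorhynchus mykiss) eggs that carry the number miR-130 or miR-301. Its members were all names of known miRNAs with either number, on both arms and with all their sequences, which gave 17 of 575 names and 28 of 1059 unique sequences. Within the family the rule uses the name alone. The family itself was chosen by the reads of D1PO and D14PO eggs, because omy-miR-130b-5p and omy-miR-130c-5p are on the study's list of miRNAs that differ between those ages. That list is by fold change between 1 library of each age, and neither miRNA is among those with reported RT-qPCR results. Values of single ages were not analysed here. The eggs came from females of a commercial population and were collected on day 1 (D1PO), day 7 (D7PO) and day 14 (D14PO) post-ovulation, and the labels name no other treatment. The sample labels give survival rates of 91.8% for D1PO, 73.4% for D7PO and less than 50.0% for D14PO. The paper reports the same values as fertilization rates, scored by cleavage of embryos. RNA of different females was pooled and each age was sequenced as 1 small RNA library, so there was no replicate of any age. The table gives 1 number of reads for each sequence and names no library, so every value below was taken to stand for the 3 ages together. Neither the labels nor the methods say so.

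MicroRNAs are cut from a hairpin precursor, and each side of the hairpin can give a mature sequence, named 5p or 3p. The mature strand guides a protein complex to messenger RNAs mainly through its seed, bases 2 to 8 from the 5′ end, and miRNAs with the same seed can bind the same sites. In vertebrates miR-130 and miR-301 are one seed family through their 3p strands. The family is best known from mammals, where it was studied in blood vessel growth, fat cell formation and tumours.

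The 3p sequences are shown first because their shared seed, in capitals, defines the family. They were the 22-nt or 23-nt form of each distinct member.
omy-miR-130b-3p: cAGUGCAAcaaugaaagggcau
omy-miR-130-3p: cAGUGCAAuauuaaaagggcau
omy-miR-130a-3p: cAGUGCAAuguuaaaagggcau
omy-miR-301c-3p, hairpin on chrUn_5: cAGUGCAAuaguauugucauagc
omy-miR-301c-3p, hairpin on chrUn_11: cAGUGCAAuaguauugucauggc
omy-miR-301a-3p: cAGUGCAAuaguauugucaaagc
All 11 listed 3p sequences of the family began with the same 8 bases and carried the seed AGUGCAA. Among the 22-nt miR-130 forms, omy-miR-130a-3p differed from omy-miR-130-3p by A10G, and omy-miR-130b-3p differed from omy-miR-130-3p by U9C, U11A and A13G. Positions are counted from 1 at the 5′ end, with the base of the form named second in the comparison written first, so these miR-130 forms differed only in the middle of the molecule.

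The 5p sequences are shown because they include the members that drew attention to the family, and because no single seed joins them.
omy-miR-130a-5p: aCUCUUUCccuguugcacuacu
omy-miR-130b-5p: gCCCCUUUuguauuguacuacu
omy-miR-130b-2-5p: gCCCCUUUuauauuguccuacu
omy-miR-130d-3-5p: gCCCCUUUucuauuguacuaca
omy-miR-130c-5p: gCCCUUUUucuguuguacuacu
omy-miR-130d-1-5p: gCUCUUUUaauuuuguacuacu
omy-miR-301c-5p, hairpin on chrUn_5: gCUUUGACaauguugcacuacu
omy-miR-301b-5p: gCUUUGACgauguugcacuacu
omy-miR-301c-5p, hairpin on chrUn_11: gCUUUGAUgacguugcacuacu
The seed CCCCUUU was shared by 3 names, omy-miR-130b-5p, omy-miR-130b-2-5p and omy-miR-130d-3-5p, and CUUUGAC by omy-miR-301b-5p and omy-miR-301c-5p. No known miRNA outside the family carried the seed of any of its 5p sequences. The omy-miR-130b-5p and omy-miR-130c-5p sequences differed by C5U, G10C and A12G, read from omy-miR-130b-5p to omy-miR-130c-5p, so their seeds differ by the first of these.

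The listed reads cannot simply be added, because reads of shorter sequences behaved as if they held those of longer ones. In the known table, 436 pairs were found in which 1 sequence lies whole within another, and the contained sequence had at least as many reads in all 436, with equal reads in 12. For the 24 sequences with several longer forms that share their start, the reads of those forms together never exceeded the reads of the shorter sequence, and equalled them for 3. The reads were therefore also counted once, by leaving out of each sum the sequences that contain a shorter listed one. Sequences that overlap only in part were all kept, as with the forms of omy-miR-130d-1-5p. A read that holds both such sequences would still be counted in each. That the counts are nested is read from the values alone, as neither the labels nor the methods mention it. Of the 28 family sequences, 4 contain a shorter one, all of them on the 3p arm.

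**Figure D1:**
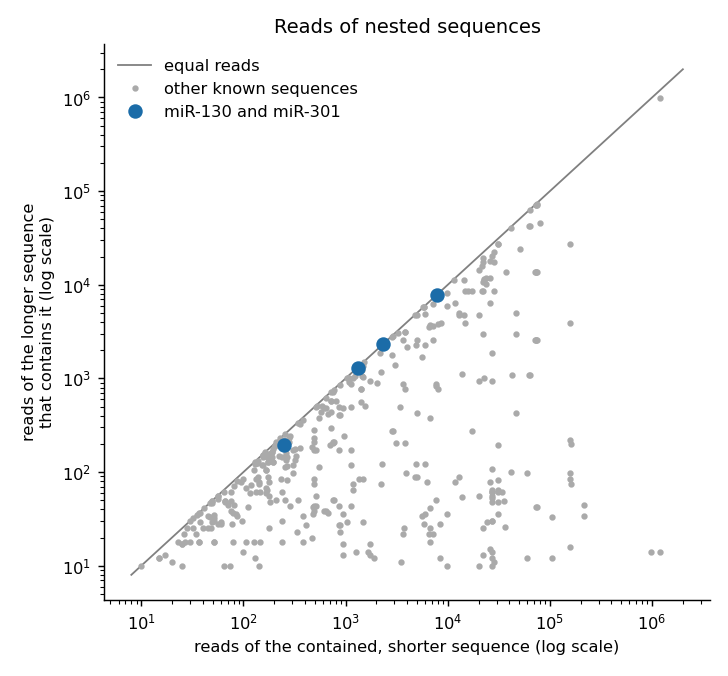
Reads of each shorter sequence (x axis, log scale) against reads of the longer sequence that contains it (y axis, log scale) for 436 pairs of known sequences, with the 4 pairs of the family in blue. No pair lies above the line of equal reads, and the miR-130 pairs lie close to it.

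The family held 31763 reads as listed and 20143 reads (95% Poisson interval 19866 to 20423) with each read counted once. These were 0.413% of all listed reads of known miRNAs and 0.346% (95% Clopper-Pearson interval 0.341 to 0.351) of those counted once. Intervals cover counting error only. Among 140 family numbers in the known table, miR-130 ranked 35th by listed reads with 29125 and 40th with 17700 counted once, where the median number had 3820.5 and 2876.5 reads. The number miR-301 ranked 81st with 2638 listed reads and 76th with 2443 counted once. It therefore lay below the median number on both counts, and miR-130 above it. The share of miR-130 in the family was 91.7% of listed reads and 87.9% (87.4 to 88.3) of reads counted once.

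The most abundant sequence of the family was the 3p strand of miR-130b. Its 22-nt form is the only sequence of omy-miR-130b-3p, with 7818 reads (95% Poisson interval 7646 to 7993). The same sequence without its last base is listed as omy-miR-130a-3p and had 7867 reads (7694 to 8043), the highest value in the family. The name omy-miR-130a-3p thus joins 2 different molecules. Of its 10488 listed reads, 7867 belong to the shortened omy-miR-130b-3p sequence, and 1330 (21 nt) and 1291 (22 nt) to the form with A10G. With forms that differ by a missing 3′ end counted together, omy-miR-130a-3p had 2621 listed reads and omy-miR-130b-3p 15685. Both sums add nested forms, and counted once they were 1330 and 7867.
omy-miR-130-3p followed with 2328 reads in its 21-nt form (2234 to 2425) and 2316 in its 22-nt form. Its counted-once value exceeded that of the omy-miR-130a-3p form with A10G, 1330 reads (1259 to 1403), by more than the counting intervals.

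If the counts are nested, nearly all 3p reads of the miR-130 members that reached the end of the 21-nt form also carried the last listed U. Ends beyond that base cannot be seen in such counts, and reads that end before the shorter listed form are in neither count. On that reading, 12 of 2328 reads of omy-miR-130-3p did not carry the last U, or 0.515% (95% Clopper-Pearson interval 0.267 to 0.899). For the omy-miR-130b-3p sequence it was 49 of 7867 reads, or 0.623% (0.461 to 0.823), and for the A10G form 39 of 1330, or 2.93% (2.09 to 3.99). Among 71 pairs of other known miRNAs that differ by a last U, the median was 5.94% and 36.6% lay under 3%. For the omy-miR-301c-3p sequence on chrUn_11, 52 of 247 reads, or 21.1% (16.1 to 26.7), lacked its last C. The median over all 164 pairs of other known miRNAs that differ by any last base was 26.0%. These include the 71 pairs with a last U, and pairs with a last C were not taken separately.

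**Figure D2:**
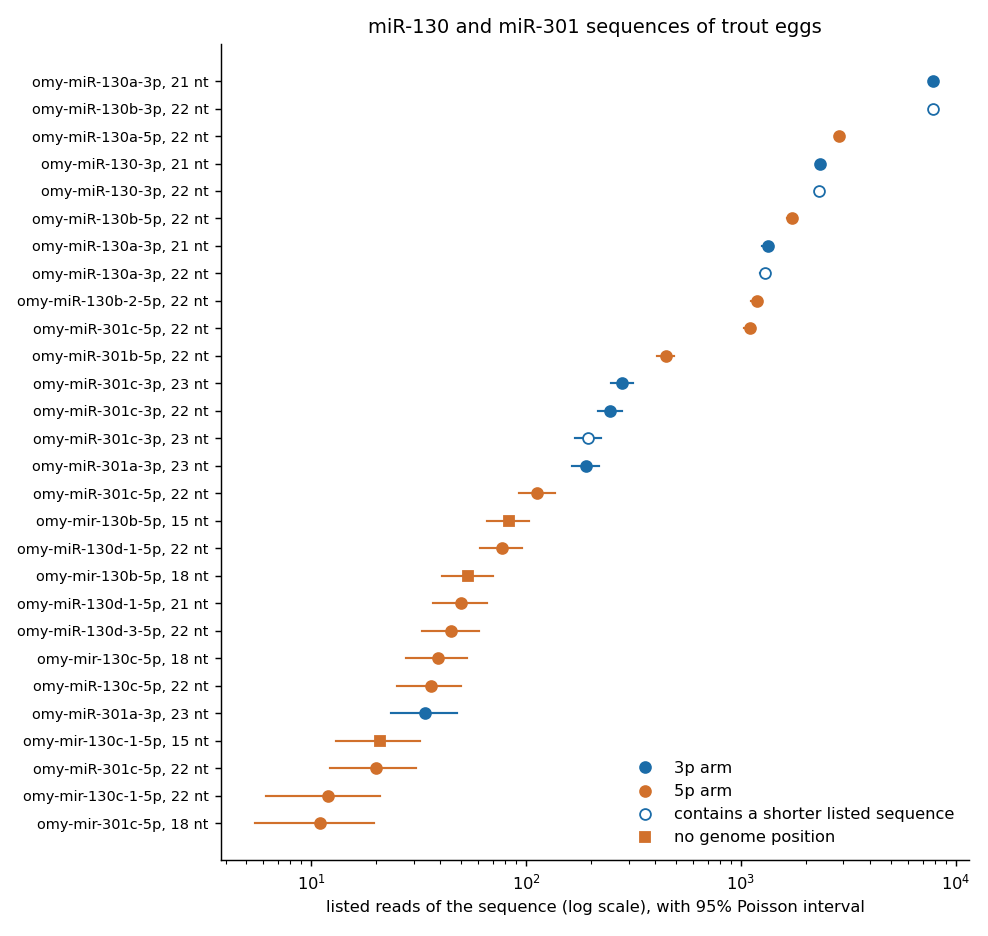
Listed reads of the 28 sequences of the family (log scale) with 95% Poisson intervals, 3p in blue and 5p in orange. Open points contain a shorter listed sequence, squares have no genome position. The sequences range from 11 to 7867 reads, and the 10 with over 1000 reads are of both arms.

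The miR-301 members were rarer on the 3p arm. omy-miR-301c-3p had 280 reads (248 to 315) of its chrUn_5 sequence, listed at 23 nt only. Its chrUn_11 sequence had 195 reads (169 to 224) at 23 nt, and these intervals do not overlap. The 22-nt chrUn_11 form had 247 reads (217 to 280), which overlaps the chrUn_5 interval. If the counts are nested, that value also holds reads without the last C, so the lengths are unlike. At 23 nt the sequences differed by G21A, from chrUn_11 to chrUn_5. omy-miR-301a-3p had 190 reads (164 to 219) of the sequence shown above. A second sequence of omy-miR-301a-3p, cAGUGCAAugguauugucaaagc, had 34 reads (23.5 to 47.5), is listed at the same hairpin and differed by G10A, from the rare to the common form.

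On the 5p arm, omy-miR-130a-5p led with 2851 reads (2747 to 2958), followed by omy-miR-130b-5p with 1724 (1644 to 1807), omy-miR-130b-2-5p with 1183 (1117 to 1252) and the chrUn_5 sequence of omy-miR-301c-5p with 1102 (1038 to 1169). The intervals of the last 2 overlap and the others do not. omy-miR-301b-5p, which differed from that omy-miR-301c-5p sequence by G9A, read from omy-miR-301b-5p, had 446 reads (406 to 489). The chrUn_11 sequence of omy-miR-301c-5p had 113 reads (93.1 to 135.9), and a form with 20 reads differed from it by C22U, read from the rarer form.
omy-miR-130c-5p, with 36 reads (25.2 to 49.8), was among the rarest members, and omy-miR-130b-5p had far more. The remaining full-length 5p members were also rare, with 77 and 50 reads in the 2 sequences of omy-miR-130d-1-5p and 45 (32.8 to 60.2) in omy-miR-130d-3-5p. All reads of the 5p arm came to 7867, the same number by coincidence as the reads of the leading 3p sequence. The 3p share of the family was 75.2% of listed reads and 60.9% (60.3 to 61.6) of reads counted once, where it was 60.1% and 57.2% over all known miRNAs.

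The table spells 4 further names with a lower-case mir, and their reads were few. omy-mir-130b-5p had 83 and 54 reads in sequences of 15 and 18 nt without a position in the trout genome, and omy-mir-130c-1-5p had 21 reads in a 15-nt sequence without a position. omy-mir-130c-5p (39 reads) and omy-mir-301c-5p (11 reads) are 18-nt sequences placed at the hairpins of omy-miR-130c-5p and omy-miR-301c-3p. None of these 5 short sequences shared more than 7 bases in a row with a longer member, and none carried the family seed. The last sequence of omy-mir-130c-1-5p, with 12 reads, is a 22-nt form that starts before omy-miR-130c-5p at an overlapping hairpin position. Sequences without a genome position held 158 reads of the family, or 0.497%, against 2.12% over all known miRNAs.

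The placed sequences came from 11 hairpins, counting overlapping positions as 1. Coordinates are those of the authors' trout genome (build: not given in the sources used here), and gene annotation for it was not analysed here. Each sequence is listed at 1 position, so reads of a mature sequence that several hairpins encode cannot be divided among them. omy-miR-130a-5p and omy-miR-130b-3p share the hairpin on chrUn_6, plus strand, from 101280 to 101349, so the letters of the arms do not match. The 21-nt form of the omy-miR-130b-3p sequence is listed at another hairpin, on chrUn_11, minus strand, from 33805112 to 33805171. omy-miR-130b-2-5p likewise lies in the hairpin of the omy-miR-130a-3p form with A10G, on chrUn, minus strand, from 131736975 to 131737059. omy-miR-130b-5p is listed alone on chrUn_10, plus strand, from 3921434 to 3921495, and omy-miR-130d-3-5p alone on chrUn_Sex, plus strand, from 9610879 to 9610936.

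Hairpins of miR-130 and miR-301 lay side by side. The omy-miR-301a-3p hairpin on chrUn, minus strand, from 131736832 to 131736923, was 51 bases from the hairpin of omy-miR-130a-3p and omy-miR-130b-2-5p. On chrUn_11, minus strand, the omy-miR-301c-3p hairpin from 33813582 to 33813642 was 656 bases from the omy-miR-130-3p hairpin, from 33814299 to 33814379. On chrUn_5, plus strand, the omy-miR-130c-5p hairpin from 8037012 to 8037111 was 630 bases from the hairpin of omy-miR-301c-5p and omy-miR-301b-5p, from 8037742 to 8037840. In all 3 pairs the miR-130 hairpin comes first in the direction of the strand. Another hairpin on chrUn_11, that of the shortened omy-miR-130b-3p sequence, was 8410 bases from the omy-miR-301c-3p hairpin, and the omy-miR-130d-1-5p hairpin on chrUn_6, from 91673 to 91730, was 9549 bases from that of omy-miR-130a-5p. A hairpin within 1000 bases on the same strand was found for 6 of the 11 hairpins of the family, and for 98 of 369 others, or 26.6%. The only other miRNA listed within 20000 bases was omy-miR-152-3p, 7338 bases from the hairpin of omy-miR-130a-3p on chrUn.

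**Figure D3:**
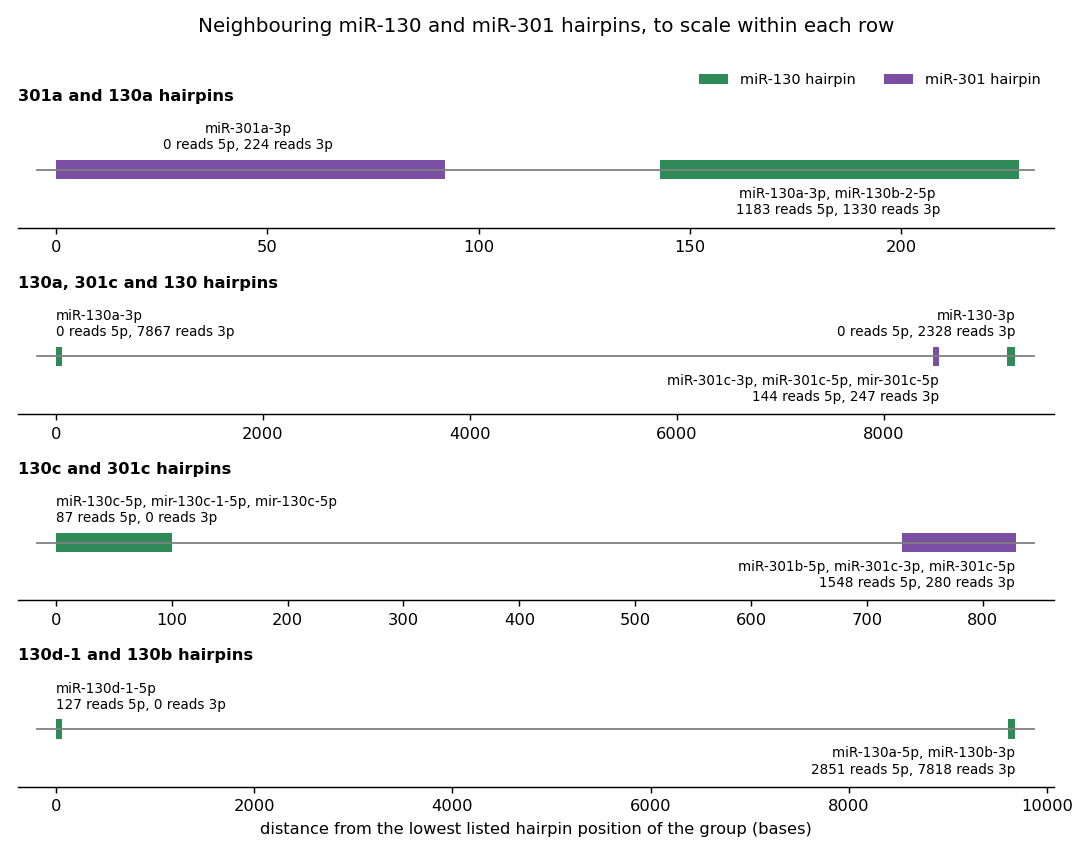
Positions of 9 hairpins in 4 neighbourhoods, in bases from the lowest listed position of each, drawn to scale within each row. The reads of each arm are counted once within a hairpin, but not between hairpins. A miR-130 hairpin (green) and a miR-301 hairpin (purple) lie 51, 656 and 630 bases apart in the upper 3 rows.

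Both arms were listed at 4 of the 11 hairpins, and the arm with more reads differed among them. At the chrUn_5 hairpin of omy-miR-301c-5p and omy-miR-301b-5p, the 5p arm had 1548 reads and the 3p arm 280, a 5p share of 84.7% (95% Clopper-Pearson interval 82.9 to 86.3). The 1548 reads join omy-miR-301c-5p and omy-miR-301b-5p, which differ by G9A, and why both are listed here was not tested. Without omy-miR-301b-5p, which is listed from 8037748 to 8037840, the 5p share was 79.7% (77.5 to 81.8). At the chrUn_11 hairpin of omy-miR-301c-3p it was 144 against 247 reads counted once, or 36.8% (32.0 to 41.8), and 24.6% of listed reads. The 144 reads include the 11 of the 18-nt omy-mir-301c-5p. With sequences of 20 to 24 nt only, the share of listed reads was 23.1%. The intervals of the chrUn_5 and chrUn_11 hairpins do not overlap. As listed, these hairpins that share the name omy-miR-301c thus had more reads on opposite arms. The intervals cover counting error only. Reads of a sequence that several hairpins encode cannot be divided among them, so the arm use of each hairpin was not tested. The chrUn_6 hairpin of omy-miR-130a-5p had 2851 reads on 5p and 7818 on 3p, a 5p share of 26.7% (25.9 to 27.6). With the 7867 reads of the 21-nt form taken as the 3p value, it was 26.6% (25.8 to 27.4). The hairpin of omy-miR-130b-2-5p and omy-miR-130a-3p was closest to balance, with 1183 reads on 5p and 1330 on 3p counted once, or 47.1% (45.1 to 49.0), and with 31.1% of listed reads. Over the 155 other hairpins of known miRNAs with both arms, 82 or 52.9% had more reads on 5p, and the quartiles of the 5p share were 8.20% and 97.4%.

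**Figure D4:**
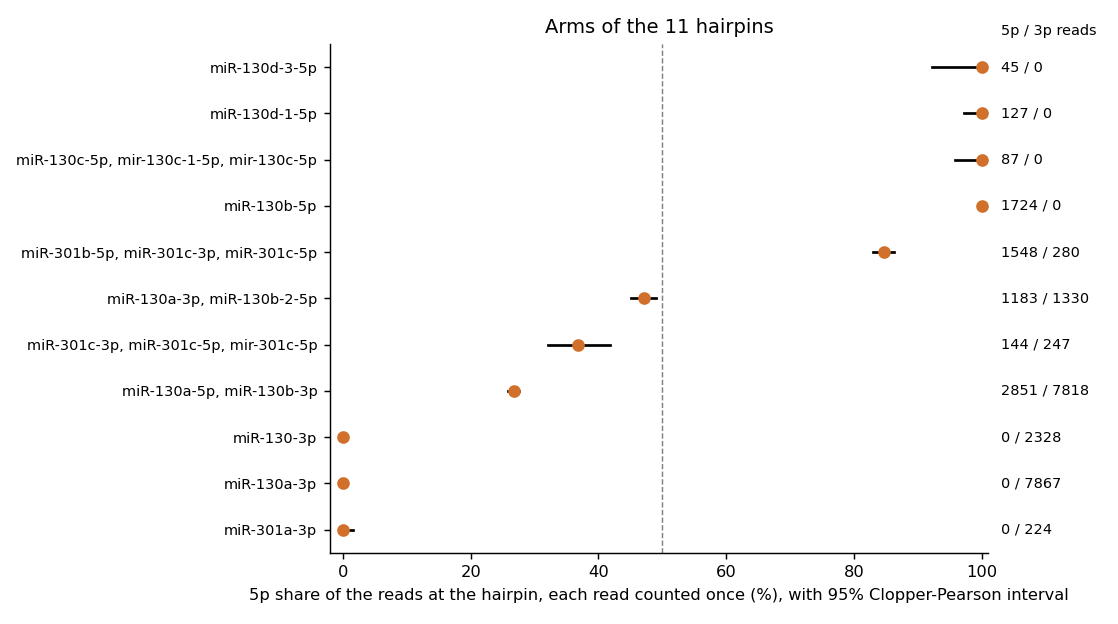
5p share of the reads at each of the 11 hairpins, with 95% Clopper-Pearson intervals and the reads of both arms at the right. Reads were counted once within each arm of a hairpin, but not between hairpins. The 7818 3p reads on chrUn_6 and the 7867 of a chrUn_11 hairpin are 2 forms of 1 sequence. The 4 hairpins with both arms lie at 26.7%, 36.8%, 47.1% and 84.7%, and the other 7 list 1 arm only. For these 7, a share of 0% or 100% follows from the listing. Their intervals do not cover reads listed at another hairpin or not listed.

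Outside the family, 2 known sequences carried the family seed. The authors named known miRNAs by their match to miRBase, so which names carry it follows in part from the naming. Seeds of other families were not counted for comparison. Of 1059 known sequences, 13 or 1.23% carried AGUGCAA at bases 2 to 8, 11 of them of the family. The other 2 were forms of 25 nt and 27 nt of omy-miR-454b-3p, a miRNA of the same seed family in vertebrates. The 27-nt form had 29 reads and is not shown. None of the 359 predicted sequences did. The omy-miR-454b-3p sequence is shown because its start decides its seed.
omy-miR-454b-3p, 25 nt: uAGUGCAAuauugcuuauagggucu
omy-miR-454b-3p, 24 nt: aGUGCAAUauugcuuauagggucu
The 25-nt form had 1030 reads and the 24-nt form, which lacks the first U, 1474. Taken as nested, 1030 of 1474 reads carried the family seed. That was fewer than the 2328 of omy-miR-130-3p and more than the 280 of the leading omy-miR-301c-3p sequence. Such values hold only reads that reach the end of forms of 25, 21 and 23 nt, so the lengths compared are unlike.
The same bases occur shifted by 1 position in a far more abundant miRNA. The stretch CAGUGCA, bases 1 to 7 of the family, lies at bases 2 to 8 of omy-miR-148-3p, with 646671 reads, and of omy-miR-152-3p, with 23191 listed and 15533 counted once. Its most abundant carrier is shown for comparison with the members above.
omy-miR-148-3p: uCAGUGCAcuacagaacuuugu
GUGCAA, bases 3 to 8 of the family, lies at bases 2 to 7 of omy-miR-19a-3p, omy-miR-19c-3p and omy-miR-19d-3p, with 5871, 41480 and 21223 listed reads and 5871, 22351 and 12994 counted once.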

How the data were processed

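Small RNA of D1PO, D7PO and D14PO eggs was sequenced on an Illumina GAIIx as 1 pooled library per age. The authors processed the reads with ACGT101-miR v3.5, filtered out reads of low quality or copy number, adapters, and reads that matched mRNA, Rfam or Repbase, and compared the rest with miRBase (release 21). The deposited counts are whole numbers of reads per unique sequence, in 1 column that names no library. They add up to 7684127 in known and 333447 in predicted miRNAs, sums that hold some reads more than once if the counts are nested. Normalization between libraries and tests between ages could not be made from it.

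The members, lists and alternatives were chosen with earlier results of these data known, and counting each read once was added after seeing the data. Reads were summed by name, arm and hairpin, with intervals at 95% that were exact Poisson for reads and Clopper-Pearson for shares. Nested sequences were found by exact containment. All names of the family are given, with sequences for the main forms. Computation used SciPy 1.17.1, NumPy 2.4.6 and pandas 2.3.3 in Python 3.11.15, and plots matplotlib 3.10.9. Intervals and containment were tested on simulated data, in which all nested forms shared their 5′ end. The paper's values of single ages were not used here.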

Additional observations from a re-analysis of the deposited data

How the results depend on the processing

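With each read counted once, an alternative chosen after seeing the data, the family held 20143 in place of 31763 reads, 0.346% in place of 0.413% of known reads, a 3p share of 60.9% in place of 75.2% and a miR-130 share of 87.9% in place of 91.7%, by the construction of that count. Members were also chosen by the family seed. This adds omy-miR-454b-3p sequences and omy-miR-454-5p, and drops 5p sequences whose exact listed position holds no 3p sequence with the seed. Among those dropped were omy-miR-130b-5p and omy-miR-130c-5p, the members that drew attention to the family, and omy-miR-301b-5p. With members so chosen there were 30744 reads, a 3p share of 81.2% and a miR-130 share of 87.8%. With sequences of 20 to 24 nt the 3p share was 75.7% and the share of known reads 0.429%, and with genome positions only the latter was 0.420%. Of 63 alternatives for single names and hairpins, 47 stayed within the counting interval and 16 moved. Most of the 47 had exactly the main value, because the alternative changed nothing for that name or hairpin. They therefore do not measure how stable the values are. No paired analysis was possible, because the counts name no library, RNA of different females was pooled and the 3 ages have no replicates. At 36 reads, as for omy-miR-130c-5p, the counting interval runs from 25.2 to 49.8, which limits comparison of the rare members.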

Other observations

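The nesting of reads held beyond the family. In the predicted table, the contained sequence had at least as many reads in all 33 pairs, with equal reads in 1. Over all known miRNAs, the listed reads came to 7684127 and the reads counted once to 5819124, a ratio of 1.32, and for predicted miRNAs to 333447 and 286705. For miR-130 the ratio was larger than for miR-301, since 3 of its 3p sequences are listed with and without the last U.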
